A study of Rattus norvegicus with 4 samples.

Results

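Hdac3 and p300 were compared within oligodendrocyte precursor cells (OPCs) through the 2 chromatin immunoprecipitation sequencing (ChIP-seq) libraries titled Hdac3_OPC and p300_OPC, out of 4 libraries in the series. The members were chosen by sample title. Reads on autosomes 1 to 20 with a score of at least 80 were kept, and the Hdac3 library was thinned at random to the depth of the p300 library. The antibodies came from Abcam (Hdac3) and Santa Cruz (p300). OPCs were taken from the cortex of Sprague Dawley rat pups at postnatal day 2. They were collected as isolated or grown with the mitogens bFGF (20 ng/ml) and PDGF-AA (10 ng/ml), and the labels do not say which of these applied to a library. The remaining libraries, Hdac3_d3 and p300_d3, came from differentiating oligodendrocytes kept in medium with ciliary neurotrophic factor (10 ng/ml) and T3, a thyroid hormone (15 nM). They were read here at places chosen in OPCs, because they had no part in that choice. Each group held 1 library and no input library was used here, so differences between the antibodies have no replicate check, and places that collect reads with any antibody could not be subtracted. All 95% intervals below are exact and cover counting error only. The files name no genes, and the gene and promoter tables at hand describe another assembly than rn4, so the label OPC could not be checked against marker genes and places are given as rn4 chromosome, start and end without annotation or sequence.

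Hdac3 is a class I histone deacetylase that works as the catalytic subunit of the NCoR and SMRT corepressor complexes, which are brought to DNA by nuclear receptors and other transcription factors. p300 is a histone acetyltransferase and coactivator that acetylates histone H3 lysine 27 and other lysines, and it is widely used as a mark of active enhancers. The enzymes therefore write and erase the same kind of mark, and the series title names an interaction between them in the choice between oligodendrocyte and astrocyte fates. Neither protein reads a DNA sequence by itself, and both are brought to chromatin by other factors.

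The autosomes held 3025850 reads of the required score for Hdac3 and 2607428 for p300, which was 72.7% and 77.5% of autosomal reads. Thinning left out 418422 Hdac3 tags, and these served as a second sample of the same library that had no part in the calls. At equal depth a 1 kb bin held 1.02 tags on average over 2558150 bins. Identical 5' ends were in slight excess between the OPC libraries, where 3166 positions coincided against a mean of 2986 when one library was moved by 1 or 2 bp (1.06 times). The excess was larger between stages of the same antibody, with 11327 against 7612 for Hdac3 and 5532 against 3725 for p300. It came to 0.0069% of the tags of the smaller library for the OPC pair, and to 0.123% and 0.0693% between stages.

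Narrow sites were few for either protein. Called sites were 1 kb bins, merged where adjacent, whose tags reached a Poisson upper tail below 1e-05 and at least 3-fold over the highest of the genome mean, the surrounding 10 kb mean and the surrounding 50 kb mean. There were 79 sites for Hdac3 on 18 autosomes and 120 for p300 on 19. The bins called were 0.00321% of all bins for Hdac3 and 0.00477% for p300. A site held 9 to 101 Hdac3 tags (median 13) or 9 to 94 p300 tags (median 11), and the sites took in 0.0604% and 0.0648% of their libraries. Single bins made up 76 of the 79 Hdac3 sites and 118 of the 120 p300 sites. Without a minimum score the counts were 320 and 312, and against the genome mean alone they were 222 and 652.

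Of these sites, 27 were called for both proteins, which is 34.2% of the Hdac3 list (23.9 to 45.7%) and 22.5% of the p300 list (15.4 to 31.0%). The remaining 52 Hdac3 sites and 93 p300 sites were called for 1 protein alone. Shared sites held more Hdac3 tags, with a median of 27 against 10.5 at sites called for Hdac3 alone. At a Poisson level of 1e-08 the shared part was 65.2% of the p300 list (15 of 23 sites) and 44.1% of the Hdac3 list (15 of 34, 27.2 to 62.1%). The median share of Hdac3 reads with a score below 80 was 47.6% at shared sites, 20.1% at sites of Hdac3 alone and 14.3% at sites of p300 alone, against 27.3% over the autosomes. For p300 reads it was 44.8%, 50% and 7.69%, against 22.5%. By p300 reads the order of shared sites and sites of Hdac3 alone depended on the measure. The median of the mean p300 score was 74.7 at shared sites and 79.25 at the 48 sites of Hdac3 alone that had p300 reads. Among sites whose reads had a mean score of at least 80, 12 were shared, out of 43 for Hdac3 and 99 for p300 (12.1% of the p300 list, 6.42 to 20.2%). The part of mappability in the overlap was not tested beyond that.

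**Figure D1:**
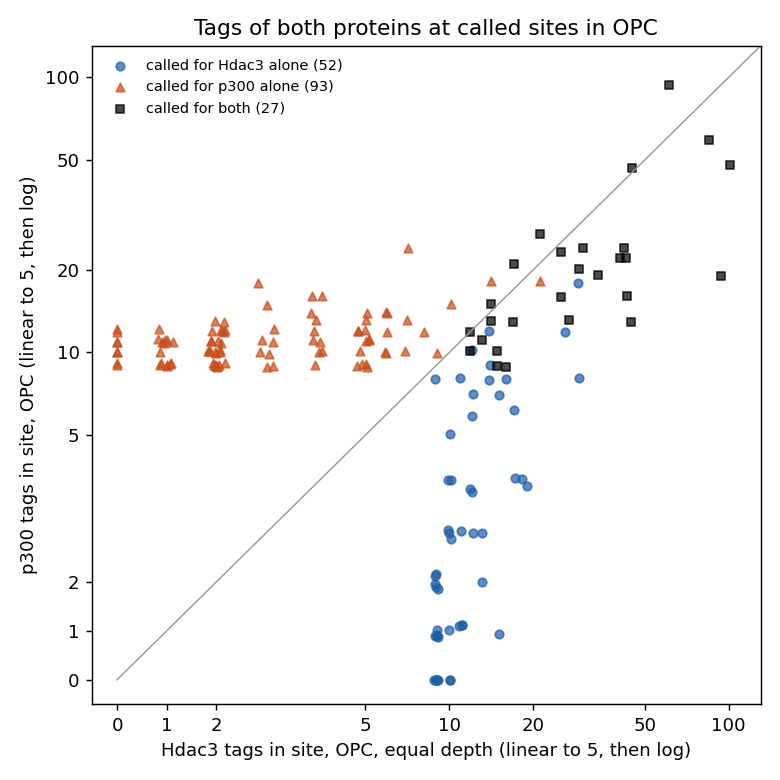
Hdac3 tags (x axis) and p300 tags (y axis) in OPC at each called site at equal depth, on axes that are linear to 5 tags and logarithmic above, with a small random offset on points above 0 so that ties can be seen. The 27 sites called for both proteins (squares) reach 101 Hdac3 and 94 p300 tags, while the 52 of Hdac3 alone (circles) and the 93 of p300 alone (triangles) lie mostly near the lower limit of 9 tags and spread down to 0 tags of the other protein.

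Shared sites are described first, by the 10 of highest mean fold. Chromosome 13 at 36740001 to 36741000 held 94 Hdac3 tags and 19 p300 tags in OPC, and 232 and 23 at d3. It was the most one-sided of the shared sites, with a ratio of Hdac3 to p300 of 4.95 (3.0 to 8.58) in OPC and of 5.60 (3.64 to 9.01) at d3 after scaling to depth. Chromosome 19 at 12445001 to 12446000 also leaned to Hdac3, with 45 and 13 tags (ratio 3.46, 1.84 to 6.99) and 120 and 26 at d3 (2.56, 1.67 to 4.08). Its reads were better placed, with mean scores of 91.9 for Hdac3 and 86.8 for p300 where the first site had 69.4 and 63.3.

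Other shared sites leaned less. Chromosome 5 at 155405001 to 155406000 held 43 and 16 tags (ratio 2.69, 1.48 to 5.11), but at d3 the interval of its ratio included 1 (1.46, 0.959 to 2.26). The same was true of chromosome 3 at 144001 to 145000, with 43 and 22 tags (1.95, 1.14 to 3.43) and a d3 ratio of 1.20 (0.823 to 1.79), and of chromosome 1 at 145514001 to 145515000, with 85 and 59 tags (1.44, 1.02 to 2.04) and 1.16 at d3 (0.878 to 1.55). Chromosome 5 at 2704001 to 2705000 held 42 and 24 tags (1.75, 1.04 to 3.02), with 1.48 at d3 (0.999 to 2.24). Close to even in OPC were chromosome 5 at 114470001 to 114471000 with 30 and 24 tags, chromosome 14 at 56507001 to 56508000 with 25 and 23, and chromosome 3 at 108876001 to 108877000 with 29 and 20. For these last sites the OPC interval included 1.

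A single shared site had an interval wholly below 1 in OPC, chromosome 4 at 75901001 to 75902000, with 61 Hdac3 and 94 p300 tags (ratio 0.649, 0.462 to 0.905). At d3 it held 137 and 100 tags, a scaled ratio of 0.760 (0.583 to 0.994). It belonged to a dense group on chromosome 4 from 75836001 to 75904000, where 4 Hdac3 sites and 5 p300 sites stood within 68 kb and all 4 Hdac3 sites were shared. All 4 of these shared sites had ratios below 1, from 0.649 to 0.957. Over all 27 shared sites 9 had an interval above 1, 1 below and 17 across it. Their summed tags gave a ratio of 1.49 (1.34 to 1.65) in OPC and 1.37 (1.27 to 1.49) at d3. As calls in OPC chose the sites, the OPC ratios describe them, and the d3 ratios come from libraries outside that choice.

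Sites called for Hdac3 alone also held p300 tags above the surroundings. Over the 52 sites p300 was 3.22-fold over the mean of the surrounding 50 kb (2.79 to 3.69), from 200 tags where 62.2 would be the local mean. At single sites p300 exceeded 2-fold at 29 and stood below 1-fold at 17, of which 8 had 0 p300 tags. Of all 1 kb bins 45.6% held 0 p300 tags. With a local mean of 62.2 tags over all 52 sites, counting error at a single site is large. These counts therefore do not divide the sites into those with and without p300. Leaving out the sites called for p300 lowers this value by construction, and over all 79 Hdac3 sites it was 7.94-fold (7.41 to 8.50). With a second random thinning, which exchanged some sites, it was 4.20-fold over the sites of Hdac3 alone.

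The Hdac3 signal itself at these 52 sites shrank when read in tags that had not chosen them. It was 10.1-fold in the tags used for calling, but 5.92-fold (4.52 to 7.62) in the Hdac3 tags left out by thinning and 6.39-fold (6.0 to 6.80) in the d3 Hdac3 library. Both values lay above p300 at the same sites, which was 3.22-fold in OPC and 3.82-fold (3.42 to 4.25) at d3. Part of the sites did not recur in tags outside the call. At 26 of the 52 the left-out Hdac3 tags numbered 0, with few to be had at a summed local mean of 10.1. At d3 Hdac3 exceeded 2-fold at 34 and stood below 1-fold at 7. The summed ratio of Hdac3 to p300 was 3.20 in OPC, fixed in part by the call, and 1.63 (1.44 to 1.85) at d3, where 41 of the 52 sites had a ratio above 1 and 11 below. By the same rule at equal depth, 15 of the 52 were called for Hdac3 at d3 and 7 for p300, all 7 among the 15. Of all bins 0.00825% were called for Hdac3 at d3 and 0.00403% for p300.

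The leading site of Hdac3 alone was chromosome 4 at 152578001 to 152579000, with 29 Hdac3 and 8 p300 tags in OPC and 51 and 9 at d3 (d3 ratio 3.14, 1.53 to 7.27). Chromosome 5 at 24497001 to 24498000 held 19 and 4 tags, and 37 and 6 at d3 (3.42, 1.43 to 9.92). Chromosome 7 at 99315001 to 99316000 held 15 tags against 1, and 43 against 5 at d3 (4.77, 1.89 to 15.4). In these 3 sites the excess of Hdac3 was present at both stages. Chromosome 16 at 20578001 to 20579000 (16 and 8 tags) and chromosome 13 at 20986001 to 20987000 (12 and 4) had d3 ratios of 1.35 (0.739 to 2.59) and 1.35 (0.531 to 3.84), within counting error of 1. Mean Hdac3 read scores of the 5 sites lay between 64.2 and 79.1.

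Sites called for p300 alone kept less of their difference. Over the 93 sites p300 was 7.98-fold over the surrounding 50 kb in OPC, the library that chose them, and 3.27-fold (3.02 to 3.54) at d3. Hdac3 was 2.49-fold there in OPC (2.22 to 2.78), 2.53-fold (1.88 to 3.33) in the left-out tags and 3.11-fold (2.91 to 3.32) at d3. At d3 the intervals of both folds thus overlapped at sites picked for p300. The summed ratio of Hdac3 to p300, 0.297 in OPC, was 0.811 (0.733 to 0.898) at d3, where 53 sites lay below 1 and 40 did not. The summed d3 tags were 941 for Hdac3 and 644 for p300, where the local means were 303 and 197. Relative to these means, as in the folds above, the proteins differed less than in the ratio scaled to library totals. The d3 calls included 6 of the 93 for p300 and 2 for Hdac3, against the same shares of all bins. By contrast 22 of the 27 shared Hdac3 sites were called for Hdac3 at d3, 22 for p300 and 20 for both.

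The 5 leading sites of p300 alone held 11 to 13 p300 tags. They were chromosome 1 at 163689001 to 163690000 with 6 Hdac3 and 12 p300 tags, chromosome 5 at 159442001 to 159443000 with 3 and 12, chromosome 1 at 37905001 to 37906000 with 4 and 13, chromosome 6 at 66321001 to 66322000 with 2 and 11, and chromosome 2 at 156716001 to 156717000 with 5 and 11. At d3 the scaled ratios of Hdac3 to p300 ran from 0.486 (0.150 to 1.53) at the last to 1.11 (0.297 to 5.04) at the site on chromosome 6, and all 5 intervals included 1. The mean p300 read score was at least 92.8 in the first 4 and 29.7 at the last. At 8 of the 93 sites Hdac3 had 0 tags, where 44.1% of all bins held 0. At 48 the interval of the OPC ratio lay below 1, which the call fixed in part.

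Most of the excess at called sites was gone a few kb away. At 2 to 5 kb on either side of sites of p300 alone, Hdac3 was 1.06-fold (1.0 to 1.13, the lower end just above 1) over the 50 kb mean, the left-out Hdac3 tags 1.23-fold (1.07 to 1.41) and p300 at d3 1.11-fold (1.06 to 1.16). A small excess thus reached into these flanks. At sites of Hdac3 alone p300 was 1.09-fold there (0.999 to 1.18). No site of Hdac3 alone lay within 10 kb of a p300 site (0 of 52, up to 6.85%, against 0.0961% of all bins). Within 100 kb lay 4 of 52 (7.69%, 2.14 to 18.5%), where 0.893% of all bins lie that near. For sites of p300 alone, 2 of 93 lay within 10 kb of an Hdac3 site (2.15%, 0.262 to 7.55%, against 0.0638% of all bins). Within 100 kb lay 6 of 93 (6.45%, 2.40 to 13.5%, against 0.591% of all bins). Most sites that were not shared thus had no site of the other protein within 100 kb. The share that had one was still above that of all bins. Counting neighbours within 1 kb as shared left the overlap at 27.

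**Figure D2:**
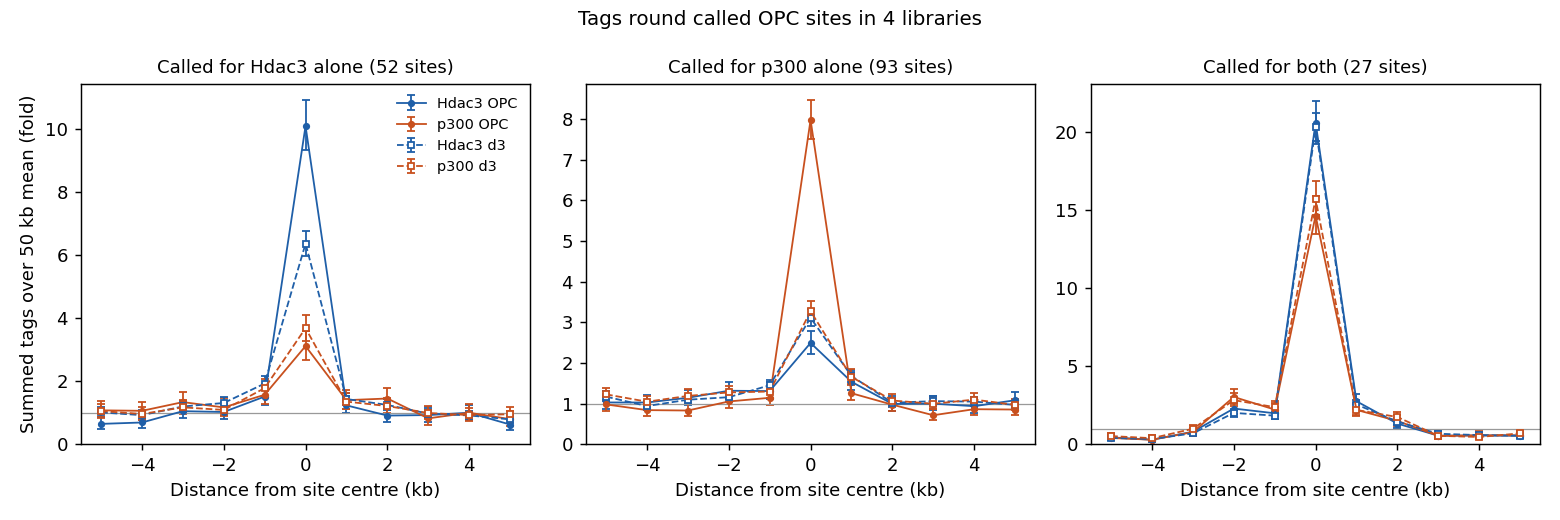
Summed tags divided by the summed mean of the surrounding 50 kb (y axis, fold) by distance from the bin with most tags (x axis, kb) for the 2 OPC libraries (solid) and the 2 d3 libraries (dashed), with exact 95% counting intervals. At sites of Hdac3 alone both Hdac3 curves stand above both p300 curves at the centre, at sites of p300 alone the p300 d3 and Hdac3 d3 curves nearly coincide, and at shared sites the stages overlay for each protein.

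Below the level of called sites, the tags of the proteins moved together bin by bin. In 1 kb bins with 0 p300 tags Hdac3 was 0.756-fold its 50 kb mean. It was 1.10-fold in bins with 1 p300 tag, 1.33-fold with 6 to 7, 1.61-fold with 8 to 9, 2.41-fold (2.28 to 2.55) in the 274 bins with 10 to 14, and 10.8-fold (10.1 to 11.5) in the 37 bins with 15 or more. Read the other way, p300 went from 0.746-fold in bins with 0 Hdac3 tags to 2.88-fold with 10 to 14 and 8.26-fold (7.73 to 8.82) in the 58 bins with 15 or more. A bin 5 kb further on stood between 0.97-fold and 1.09-fold for Hdac3 in every class of p300 tags up to 14, and at 0.815-fold (0.651 to 1.01) in the top class.

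The same course was seen between stages of 1 protein. Against equally deep Hdac3 tags at d3, Hdac3 in OPC went from 0.748-fold in bins with 0 tags through 1.29-fold at 5 to 2.95-fold (2.80 to 3.11) at 10 to 14. In the class of 10 to 14 tags Hdac3 stood at 2.95-fold by d3 Hdac3 against 2.41-fold by OPC p300. For p300 in that class the order was the other way, with 2.30-fold (2.19 to 2.41) by d3 p300 against 2.88-fold (2.67 to 3.11) by OPC Hdac3. At 15 or more tags both orders turned, with overlapping intervals. Hdac3 was 10.1-fold (9.57 to 10.7) by d3 Hdac3 and 10.8-fold by OPC p300. In that top class p300 was 8.56-fold (7.94 to 9.21) by d3 p300 and 8.26-fold by OPC Hdac3. Classes differed in their number of bins, so the folds do not rank how closely libraries follow each other. Bins share the uniquely mappable sequence they contain, and its part in these curves was not tested.

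The tails of the libraries differed in shape. Bins with at least 6 tags numbered 8371 for Hdac3 and 14073 for p300, whereas bins with at least 15 tags numbered 58 and 37. p300 thus had more moderately filled bins and Hdac3 more of the very full ones.

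Over broad windows Hdac3 and p300 differed by a modest amount across much of the genome. In 5064 windows of 500 kb with at least 100 tags, the median held 538 Hdac3 and 513 p300 tags. The log2 ratio of Hdac3 to p300 (with 0.5 added to each count) had a median of 0.045, with 90% of windows between -0.31 and 0.51. Its SD was 0.259, where counting error alone would give an SD of 0.0997. With the counting variance subtracted from the variance, the SD was 0.239. The exact interval of the ratio excluded 1 in 31.0% of windows toward Hdac3 and in 22.2% toward p300.

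A window was called where one protein exceeded the other by more than 25%. This held for 933 windows toward Hdac3, or 18.4%, and for 205 toward p300, or 4.05%. Scaled by the median window instead of the total, the counts were 706 and 374. In 50 kb windows, of which 48075 had at least 20 tags, 4939 (10.3%) were past 1.5-fold toward Hdac3 and 1599 (3.33%) toward p300. Counting error was larger there, with an SD of 0.310 beside 0.400 for the log2 ratio. With the counting variance subtracted from the variance, the SD was 0.252, near that of the larger windows.

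The d3 libraries, which share no library with the OPC pair, showed the same broad pattern. Of the 933 windows toward Hdac3 in OPC, 930 had a d3 log2 ratio above 0 (99.7%, against 62.4% of all windows) and 534 were past the limit (57.2%, against 19.0%). Of the 205 toward p300, 197 were below 0 at d3 (96.1%, against 37.6%) and 105 past the limit (51.2%, against 9.18%). Over all 5064 windows the OPC and d3 ratios had a Pearson r of 0.785 and a Spearman rho of 0.819, given as a description, since neighbouring windows are not independent and both pairs share mappability. Without tags whose 5' end occurred in more than 1 library r was also 0.785. Such ends were too few for their removal to move r, with at most 11327 between any pair of libraries.

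**Figure D3:**
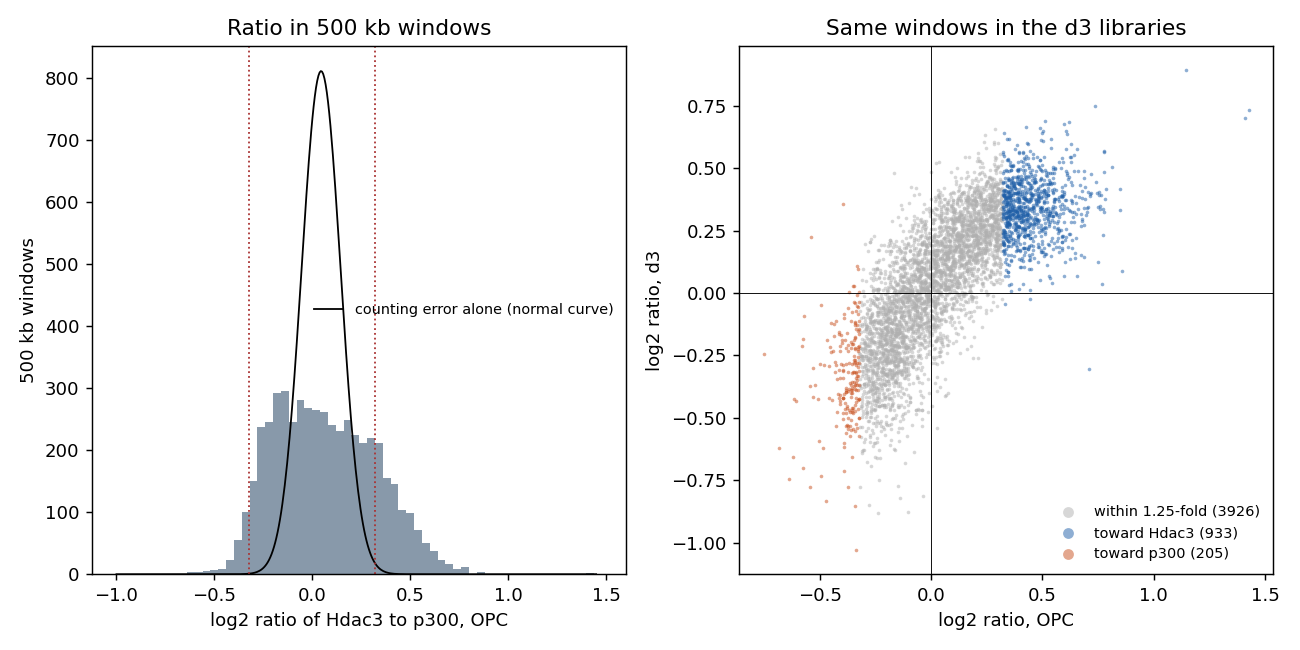
Left, the number of 500 kb windows (y axis) by log2 ratio of Hdac3 to p300 in OPC (x axis), with dotted lines at an excess of 25% either way and a normal curve of the width that counting error alone gives (SD 0.0997). Right, the OPC ratio of each window (x axis) against its d3 ratio (y axis), where windows past that limit toward Hdac3 (933) lie almost all above 0 at d3 and those toward p300 (205) almost all below.

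Windows toward Hdac3 were not windows full of Hdac3. They held a median of 137 RPM of Hdac3 (tags scaled to the library total) and 99.7 RPM of p300, where windows between the limits held 217 of either. Windows toward p300 held 250 RPM of Hdac3 and 326 RPM of p300. Since the OPC ratio defines these classes, a wider range of p300 than of Hdac3 over them is fixed by the choice. In the d3 libraries, which had no part in it, windows toward Hdac3 held medians of 130 RPM of Hdac3 and 100.4 RPM of p300, and windows toward p300 held 253 and 316. Over all windows, between those at the 5th and 95th percentile p300 tags differed 4.63-fold and Hdac3 tags 3.0-fold, and at d3 the values were 4.77-fold and 3.22-fold.

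The dependence on level was measured with the d3 libraries setting the level. In the 1013 windows with the lowest mean RPM at d3 the median OPC log2 ratio was 0.36, and 59.3% were past the limit toward Hdac3. It was 0.21, 0.066 and -0.076 in the next 3 groups of equal size and -0.20 in the 1013 highest windows, of which 13.5% were past the limit toward p300. With a linear trend on the mean log2 tags of the same pair removed, 161 windows were past the limit toward Hdac3 and 185 toward p300, and r between OPC and d3 was 0.649. The stages were thus still alike after the trend had been taken out, at a lower r.

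**Figure D4:**
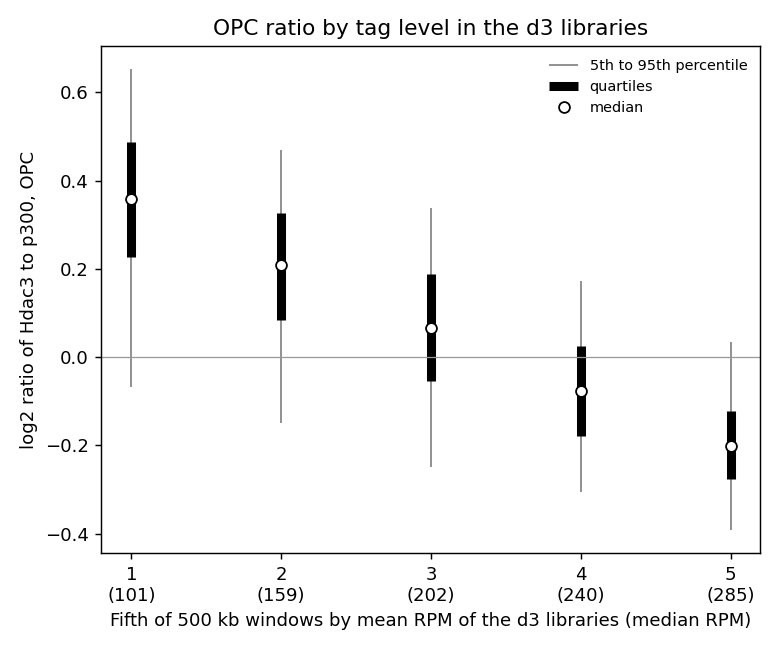
The log2 ratio of Hdac3 to p300 in OPC (y axis) in 5 equal groups of 500 kb windows ordered by mean RPM in the d3 libraries (x axis, median RPM in brackets). The median (circle) falls from 0.36 to -0.20 over the groups, with bars for the quartiles and thin lines for the 5th to 95th percentile.

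Mapping moved with the ratio as well. The median share of OPC reads with a score below 80 was 32.2% for Hdac3 and 30.5% for p300 in windows toward Hdac3, against 25.1% and 18.8% in windows toward p300. Over all windows the OPC ratio had a Pearson r of 0.417 with this share for Hdac3 and of 0.518 with that for p300. The part of mapping in the ratio was not tested. In the 3765 windows where both libraries had under 30% of such reads, r between the stages was 0.782. That value cannot decide the question, because the stages share mappability. Base composition and gene density were not analysed here.

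The most extreme windows toward Hdac3 were 3 neighbours on chromosome 1 from 74500001 to 76000000. The window from 75500001 held 192 Hdac3 and 71 p300 tags (ratio 2.70, 2.05 to 3.60), that from 75000001 held 115 and 43 (2.67, 1.87 to 3.89) and that from 74500001 held 131 and 59 (2.22, 1.62 to 3.07). At d3 their ratios were 1.67 (1.33 to 2.10), 1.64 (1.21 to 2.25) and 1.87 (1.44 to 2.45). All 3 held few tags for either protein, and 61.3% to 66.1% of their Hdac3 reads had a score below 80. The remaining 2 stood at chromosome ends, on chromosome 18 from 87000001 to 87264216 with 122 and 67 tags (1.82, 1.34 to 2.49) and on chromosome 3 from 1 to 500000 with 105 and 58 (1.81, 1.30 to 2.54). On chromosome 18 the d3 ratio of 1.06 (0.849 to 1.34) was within counting error of 1, and 41.5% of Hdac3 reads had a score below 80. The window on chromosome 3 was the worst placed of the 5, with 87.9% of Hdac3 and 89.7% of p300 reads below 80, and had a d3 ratio of 1.34 (1.06 to 1.71).

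Toward p300 the most extreme window was on chromosome 1 from 175500001 to 176000000, with 794 Hdac3 and 1338 p300 tags (ratio 0.593, 0.543 to 0.648). It was also the one that moved most at d3, to 0.844 (0.788 to 0.903). Chromosome 16 from 1000001 to 1500000 held 742 and 1191 tags (0.623, 0.568 to 0.683) and had a d3 ratio of 0.651. Chromosome 7 from 22500001 to 23000000 held 670 and 1043 (0.642, 0.582 to 0.709; d3 0.598), and chromosome 9 from 88500001 to 89000000 held 672 and 1033 (0.651, 0.589 to 0.718; d3 0.634). Chromosome 4 from 7500001 to 8000000 held 655 and 1005 tags (0.652, 0.590 to 0.720; d3 0.746). In contrast to the Hdac3 end, these 5 windows were well filled for both proteins. Of their Hdac3 reads 21.5% to 26.7% had a score below 80, and of their p300 reads 16.1% to 19.9%.

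Windows of like ratio lay side by side. In OPC the correlation of log2 ratios of 500 kb windows was 0.68 at a separation of 0.5 Mb, 0.52 at 1 Mb, 0.33 at 2 Mb, 0.13 at 5 Mb and 0.060 at 10 Mb, and at d3 it was 0.74 at 0.5 Mb and 0.19 at 5 Mb. Of the called windows, 76.3% of those toward Hdac3 and 41.5% of those toward p300 had a neighbour of their own kind. Of all windows, 18.4% were toward Hdac3 and 4.05% toward p300. The neighbour shares therefore do not rank how strongly either kind clusters. The longest run of 50 kb windows past 1.5-fold toward Hdac3 had 9 windows, on chromosome 13 from 16450001 to 16900000, with 285 Hdac3 and 145 p300 tags (ratio 1.97, 1.60 to 2.42) and a d3 ratio of 1.4 (1.2 to 1.64). Toward p300 the longest runs had 5 windows, and the first of them lay inside the most extreme window, on chromosome 1 from 175500001 to 175750000, with 442 and 883 tags (0.501, 0.446 to 0.562) and a d3 ratio of 0.773 (0.709 to 0.844). The runs were chosen by their OPC values, and the d3 values took no part in the choice.

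Chromosome 13 held the 3 longest runs of 500 kb windows toward Hdac3, a stretch picked out after these values had been seen. Between 1 and 30500000, 53 of 61 windows were past the limit toward Hdac3 and 0 toward p300, with summed tags of 20156 and 14639 (ratio 1.38, 1.35 to 1.41). At d3, 60 of the 61 windows were above 0 and the ratio was 1.24 (1.22 to 1.26). The rest of the chromosome had a summed ratio of 0.983 (0.974 to 0.992) in OPC and 0.971 (0.965 to 0.978) at d3. Its single windows did not lean to p300 as a whole. Of 162, 22 were past the limit toward Hdac3 and 2 toward p300, and 77 lay above 0 in OPC and 91 at d3. The cut between the parts was set at the end of the third run, so their contrast is a description. The first part was poor in tags, at 253 RPM per Mb for Hdac3 and 184 for p300 against 391 over the autosomes, and 38.5% of its Hdac3 reads had a score below 80 against 24.4% in the rest.

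Called sites were then set against the broad windows. Windows of 500 kb toward Hdac3 took in 11 of the 52 sites of Hdac3 alone (21.2%, where 18.4% of windows are of that kind) and 5 of the 93 sites of p300 alone (5.38%). Windows toward p300 took in 15 of the sites of p300 alone (16.1%, where 4.05% of windows are of that kind) and 3 of the sites of Hdac3 alone (5.77%). Since the tags of a site also count in its window, and windows toward p300 hold more tags, these shares are a description.

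Whole autosomes differed by a few percent. The highest ratio of Hdac3 to p300 was on chromosome 2, with 243862 and 230170 tags (1.06, 1.05 to 1.07), and the lowest on chromosome 10, with 129809 and 139774 (0.929, 0.922 to 0.936). At d3 these chromosomes had ratios of 1.08 and 0.900, and chromosome 12 was the lowest there (0.890). The interval lay above 1 on 7 autosomes, below 1 on 7 and included 1 on 6. Sides of 1 were the same at both stages on 16 autosomes and differed on 4, and 0 autosomes had intervals off 1 on opposite sides.

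**Figure D5:**
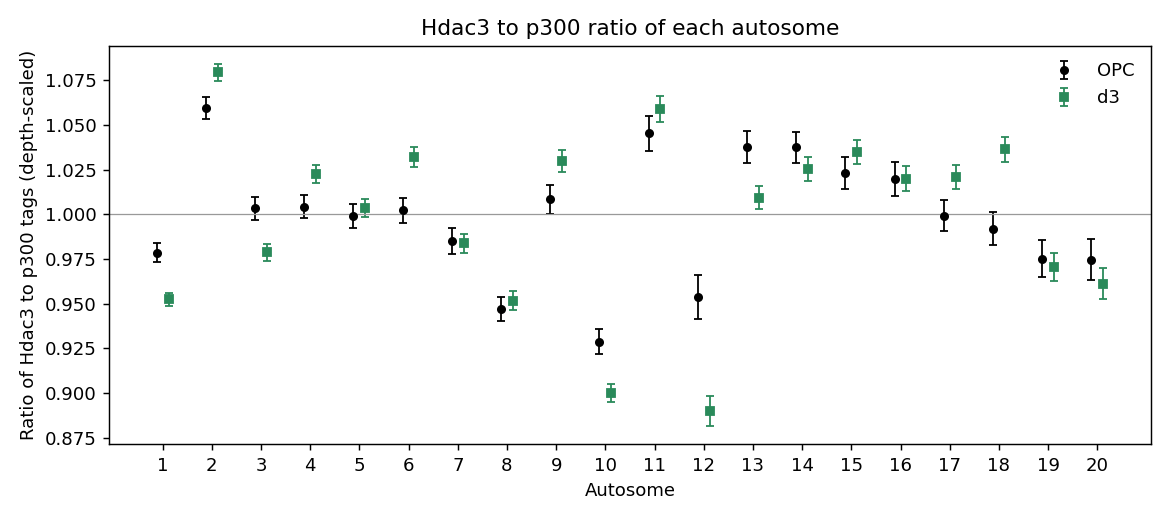
Ratio of depth-scaled Hdac3 to p300 tags (y axis) for each autosome (x axis) in OPC (circles) and at d3 (squares), with exact 95% counting intervals. Chromosome 2 is highest in OPC (1.06) and chromosome 10 lowest (0.929), and at d3 chromosome 10 stays below 1 (0.900).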

How the data were processed

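The deposited files list 1 aligned read per line with chromosome, start, end, strand and a score from 8 to 100. The authors deposited this score without its scale; here it stands for mapping quality. Per the submitters' processing notes, the build was rn4 and MACS 1.4.0 was among the tools, in a role they do not name. Aligner and filters were not given in the sources used here. Each tag was shifted by 100 bp toward its 3' side, then assigned to 1 kb bins and to windows of 50 and 500 kb. Thinning used seed 1. Ratios have exact conditional binomial intervals, shares Clopper-Pearson intervals and summed folds Poisson intervals, and no library held a 5' end more than 1 time per strand, which caps the tags of a narrow site. Fold ranking used the calling background, all other folds the 50 kb mean. Calling and intervals were tested on simulated data. Python 3.11.15, numpy 2.4.6, scipy 1.17.1 and pandas 2.3.3 were used.

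Named places were up to 10 shared sites of highest mean fold, 5 sites of highest fold per protein, 5 windows of 500 kb per direction, the longest 50 kb run per direction and the highest and lowest autosome. Members, rules and thresholds were chosen with earlier results of these data known. Alternatives were other scores, seeds, bins, Poisson levels, backgrounds, shifts, scalings and minima. Score-selected and isolated sites, all sites of the other protein, removal of shared 5' ends, a trend on level and well-mapped windows were added after the data were examined.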

Additional observations from a re-analysis of the deposited data

Results flagged for a closer look

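The site of p300 alone on chromosome 6 at 66321001 to 66322000 stood on opposite sides of 1 at the stages, with a ratio of Hdac3 to p300 of 0.182 (0.0196 to 0.833) in OPC and 1.11 (0.297 to 5.04) at d3. The difference was not tested, each stage had 1 library, and the OPC call chose the site.

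Reads outside the comparison also gave ratios of Hdac3 to p300 off 1, and the cause was not tested. On chromosome X, left out because the comparison covered autosomes, 97907 Hdac3 and 77541 p300 reads of the required score gave a ratio relative to autosomes of 1.09 (1.08 to 1.10) in OPC, above that of every autosome, and of 1.41 (1.4 to 1.42) at d3. Mitochondrial reads of any score numbered 22898 and 19969 in OPC, a ratio of 0.927 (0.909 to 0.945), and at d3 the ratio was 0.462 (0.452 to 0.472).

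Reads with a score below 80, called alone at an equal depth of 757397 tags, gave 390 Hdac3 and 324 p300 sites. Of the p300 sites 150 overlapped an Hdac3 site (46.3%, 40.8 to 51.9%), where reads of a score of at least 80 gave 22.5%. Of the Hdac3 sites 38.5% (33.6 to 43.5%) overlapped a p300 site, against 34.2% (23.9 to 45.7%), so the intervals of that share overlapped.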

How the results depend on the processing

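No paired analysis was possible because each group held 1 library. Of 139 values under other settings, 103 stayed within 1.5 times the reported count or within the reported interval, 36 did not, and the cause was not tested. Some of the 103 could not change. These include the number of p300 sites under other thinning of Hdac3, and the SDs and r after scaling by the median window. The ratios at shared sites and on chromosomes 2 and 10 kept their side of 1, but the order of some counts turned: Hdac3 sites outnumbered p300 sites without a minimum score and at 1e-08, and windows toward p300 outnumbered those toward Hdac3, at 50 and at 500 kb, once the trend on level was removed. Without a minimum score there were 320 Hdac3 and 312 p300 sites, sharing 46.6% and 47.8%, with Hdac3 at 2.84-fold at sites of p300 alone, a shared-site ratio of 1.31, a 50 kb SD beyond counting error of 0.248 and 1.05 on chromosome 2. At a minimum of 50 there were 181 and 222 sites, 36.5% of p300 sites were shared and that SD was 0.248. At 100 it was 0.258, and 0.246 at 500 kb. At a Poisson level of 1e-08 there were 34 and 23 sites, 65.2% of p300 sites were shared, and the other protein stood at 7.39-fold (p300 at Hdac3 sites) and 5.94-fold (Hdac3 at p300 sites). Against the genome mean alone the values were 222 and 652 sites, 8.74%, 1.95-fold and 1.58-fold. p300 at sites of Hdac3 alone was 4.20-fold with the second seed and 4.75-fold with 500 bp bins. Over all sites of the other protein the folds were 7.94 for p300 and 7.14 for Hdac3. Among sites of a mean score of at least 80, 12.1% of p300 sites were shared. Scaling by the median window gave 374 windows of 500 kb toward p300, and the higher minimum of tags a 50 kb SD of 0.245. Less the trend on level, 161 windows of 500 kb and 2203 of 50 kb lay past the limit toward Hdac3 (185 and 2290 toward p300), the SDs were 0.159 (500 kb) and 0.173 (50 kb) and r was 0.649.

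Depth limited single sites. A 1 kb bin held 1.02 tags on average and no site was called with fewer than 9, so weaker sites were not detectable, and a site in 1 list alone is not shown to lack the other protein.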
